A study of Mus musculus with 6 samples.

Results

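The immunoglobulin kappa variable genes, written Igkv with a subgroup number and a position number, encode most of the variable domain of the kappa light chain. They were taken as every row of the deposited gene table with a name of that form and at least 30 reads summed over the 6 libraries, which left 97 of the 99 rows so named and of 18491 genes in all. The rule used only the name and the summed count, not the difference between groups. Just outside the minimum lay Igkv8-26 with 10 reads and Igkv4-81 with 14, and just inside it Igkv4-75 with 51 and Igkv3-9 with 53. By the GENCODE annotation of GRCm38, all 97 lie on chromosome 6, and 92 are annotated as V genes and 5 as pseudogenes. They fall into 18 subgroups, and 35 are transcribed in the same direction as the constant gene Igkc (chr6:70726435-70726966, plus strand) while 62 point the opposite way.

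In a developing B cell the recombinase joins 1 V gene to 1 of the J segments next to Igkc, and the joined exon is transcribed and spliced to the constant exon, so the V gene read in an mRNA marks the rearrangement of the cell that made it. A V gene pointing the same way as Igkc joins by deletion of the DNA between them, and one pointing the opposite way joins by inversion. Antibody-secreting plasma cells, which live in bone marrow for long periods, hold far more immunoglobulin mRNA than other B lineage cells. In bulk RNA, fewer cells using a gene and less RNA per cell cannot be told apart.

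RNA was sequenced from mouse bone marrow cells sorted by flow cytometry as haematopoietic stem and progenitor cells, 8 months after injection of poly(I:C), by the protocol given for all 6 samples. Poly(I:C) induces the interferon-responsive Mx1 promoter, which drives Cre in blood cells and also in other tissues. The 3 wild-type (WT) libraries were set against 3 libraries of Robo1 knockout (KO) mice, in which Mx1-cre removed Robo1, an axon guidance receptor gene, after 3 doses of poly(I:C). Other label fields of the same samples call them a scrambled shRNA control and a knockdown by shRNA. By title the knockdown is of ROBO1. The treatment field of knockout libraries 1, 2 and 3 gives ROBO1, ROBO2 or ROBO3. The labels thus disagree on what was lowered and how. Robo1 itself was not analysed here, so the genotype was not checked against its transcript. The sources used here do not give age, mouse numbers or whether the wild-type mice carried Mx1-cre, and nothing says that libraries came from separate mice, so p-values measure only the spread between these libraries. Libraries held 42235077 to 58106099 gene-assigned reads, and kappa V genes took 186754 to 253051 of them.

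The sorted label was set against cell markers, in CPM (counts scaled to a common library size) after TMM scaling. The progenitor gene Mpo had 49728 ± 2056 CPM in wild type against 149546 ± 4268 CPM in knockout (SD, n = 3 each), and the progenitor marker Cd34 had 106 ± 4.54 and 102 ± 0.483 CPM. Kit, a receptor that defines the usual stem and progenitor gate, was at 13.7 ± 1.77 and 16.9 ± 0.276 CPM. Among B cell genes, Ms4a1 (0.212 and 0.246 CPM) and Pax5 (0.341 and 0.343 CPM) were near 0 in both groups. The B cell receptor chains Cd79b and Cd79a were higher, Cd79b at 87.1 ± 9.95 and 70.2 ± 4.96 CPM and Cd79a at 10.4 ± 1.09 and 7.47 ± 0.459 CPM, and Ly6d was at 10.8 ± 0.898 and 6.68 ± 0.352 CPM. The plasma cell gene Jchain, which links immunoglobulin polymers, was at 641 ± 37.8 CPM in wild type against 992 ± 108 in knockout, while the plasma cell surface marker Sdc1 was at 1.88 and 1.56 CPM. B cell and plasma cell genes thus ran from near 0 to levels close to or above that of Cd34. These CPM hold for TMM scaling, and differences between the groups depend on the scaling.

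The following sequences are the last 60 bases of 7 kappa V transcripts that carried much of the difference between the groups, from GENCODE for GRCm38. This stretch ends where recombination joins V to J, and it holds the start of the third complementarity-determining region, the loop that contacts antigen. The capitals mark the codon of the conserved cysteine before that loop, found as the last TANNNNTGT or TANNNNTGC on the sense strand whose final 3 bases start at least 20 bases before the end. Such a match was held by 96 of 97 members (99.0%) and by 8.23% of 141515 annotated transcripts of at least 60 bases, in their last 60 bases. From the first base of that codon to the end, 63 members had 26 bases and the range was 21 to 31.
Igkv19-93: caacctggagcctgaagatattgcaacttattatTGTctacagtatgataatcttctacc
Igkv14-126: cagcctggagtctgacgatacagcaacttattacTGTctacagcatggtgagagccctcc
Igkv5-43: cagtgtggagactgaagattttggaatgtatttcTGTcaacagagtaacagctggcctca
Igkv6-20: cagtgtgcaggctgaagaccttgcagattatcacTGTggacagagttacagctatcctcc
Igkv8-30: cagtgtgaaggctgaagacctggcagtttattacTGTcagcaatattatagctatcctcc
Igkv6-15: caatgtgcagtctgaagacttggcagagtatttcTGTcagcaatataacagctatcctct
Igkv8-34: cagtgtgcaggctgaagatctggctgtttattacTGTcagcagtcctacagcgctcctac

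They lie, in that order, at chr6:68736297-68736356 (−), chr6:67896583-67896642 (+), chr6:69823355-69823414 (−), chr6:70335841-70335900 (−), chr6:70117061-70117120 (−), chr6:70406469-70406528 (−) and chr6:70044112-70044171 (−), each stretch within 1 exon. After the cysteine codon the printed sequences all differ, also within subgroups 6 and 8. This is not a difference between subgroups as such, since Igkv6-25 and Igkv8-24 have the same bases there.

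Per library, kappa V reads made up 0.434, 0.395 and 0.381% of all counts in wild type against 0.443, 0.438 and 0.442% in knockout. The groups did not overlap, and the difference of 0.0379 percentage points gave an exact two-sided permutation p of 0.1, the smallest that 3 against 3 libraries allow. Without the 100 most abundant genes other than immunoglobulin genes in the total, the difference was 0.353 percentage points in the same direction. That smaller total makes every percentage larger, so only the direction can be set beside the first difference. Igkc took 1.61 ± 0.0459% of counts in wild type against 2.38 ± 0.0775% in knockout, a larger ratio than that of the V genes. The number of kappa V counts per Igkc count was 0.272, 0.252 and 0.230 in wild type against 0.192, 0.185 and 0.180 in knockout (exact permutation p = 0.1). Of the 9 comparisons of such per-library quantities in this text, each had an exact permutation p of 0.1, and the Benjamini-Hochberg value over the 9 was 0.1.

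Within the kappa V total, libraries of 1 group had nearly the same composition and the groups differed. The share of kappa V counts that would have to move between genes to turn 1 library into another was 3.22 to 4.85% among wild-type libraries, 2.70 to 3.50% among knockout libraries and 36.1 to 39.5% between the groups. Pearson's r of the 97 shares, which share a kappa V total within each library, was 0.997 to 0.998 within wild type, 0.998 to 0.999 within knockout and 0.681 to 0.732 between groups. The chi-square per degree of freedom over the members was 8.97 to 26.7 between libraries of 1 group, so no pair agreed within counting noise. Over all genes it was 13.3 to 37.0 within wild type and 15.9 to 28.4 within knockout, so this excess is not particular to the members.

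The most used kappa V gene was not the same in the groups. Per length, by share of the summed kappa V FPKM (fragments scaled by gene length and library size), the wild-type order was Igkv19-93 with 21.5 ± 0.861%, Igkv14-126 with 11.8 ± 0.512%, Igkv5-43 with 9.02 ± 0.724%, Igkv6-20 with 5.19 ± 0.318% and Igkv12-46 with 3.79 ± 0.105%. The knockout order was Igkv14-126 with 17.3 ± 0.606%, Igkv19-93 with 9.57 ± 0.168%, Igkv8-30 with 7.10 ± 0.195%, Igkv6-15 with 6.21 ± 0.327% and Igkv8-34 with 3.97 ± 0.126%. Each of these neighbours in the order was apart in every library of its group. From the sixth to the ninth gene in wild type (Igkv4-55, Igkv8-30, Igkv1-110, Igkv1-117) neighbours overlapped, as they did from the seventh gene on in knockout (Igkv12-44, Igkv4-59, Igkv2-137, Igkv1-110). Exon lengths of the members ran from 338 to 501 bases, and shares are given below as shares of kappa V counts.

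Igkv19-93 held 20.2, 21.3 and 21.4% of kappa V counts in wild type against 9.05, 9.39 and 9.28% in knockout. Every knockout library was below every wild-type library. In edgeR's quasi-likelihood test with the kappa V total as library size, which tests the change of share and adjusts p by Benjamini-Hochberg over 15474 genes, its share fell by 1.18 on the log2 scale (SE 0.07, adjusted p = 8.2e-07). Igkv14-126, the only member of its subgroup among the 10 most used, held 11.99, 11.41 and 11.07% in wild type against 17.6, 16.4 and 16.7% in knockout (log2 0.56, SE 0.07, edgeR adjusted p = 3.2e-05). The fall of the first and the rise of the second exchanged their places.

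The largest fall among members with a mean share of at least 0.2% was that of Igkv5-43, which held 8.70, 10.2 and 9.08% in wild type against 0.512, 0.514 and 0.560% in knockout. That is a log2 change of share of -4.14 (SE 0.10, edgeR adjusted p = 1.87e-08), and by FPKM share the gene went from rank 3 to rank 37. Igkv6-20 held 5.05, 5.69 and 5.17% against 1.35, 1.44 and 1.45% (log2 -1.91, SE 0.09, edgeR adjusted p = 5.8e-07), from rank 4 to 17. Both were low in all 3 knockout libraries. Igkv5-45 fell from 1.89 ± 0.0640% to 0.138 ± 0.00536% (SD, n = 3; log2 -3.77), Igkv5-48 from 1.66 ± 0.113% to 0.234 ± 0.0220% (log2 -2.82) and Igkv6-29 from 1.09 ± 0.0426% to 0.260 ± 0.0150% (log2 -2.07). The edgeR adjusted p of these 3 ran from 5.31e-08 to 8.2e-07. All the genes of this paragraph were picked by the size of their fall, so their p-values are no separate support for it. Igkv5-45 was above 0.2% in wild type only.

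In the other direction, Igkv8-34 had 24, 0 and 0 reads in wild type against 9630, 9006 and 7547 in knockout, or 3.81, 3.98 and 4.04% of kappa V counts in knockout. The 24 reads of 1 wild-type library set the size of the fitted change: it was 9.98 on the log2 scale with all libraries (SE 0.58, edgeR adjusted p = 9.26e-07), 16.08 without wild-type replicate 1, 9.38 without replicate 2 and 9.36 without replicate 3. Its wild-type reads alone would not meet the minimum of 30 summed reads, so Igkv8-34 is a member only through the knockout libraries. It was also picked by the size of its rise, so its p is no separate support for that rise. By FPKM share the gene went from rank 88 of 97 to rank 5. Igkv6-15 held 1.39, 1.34 and 1.21% in wild type against 5.62, 5.78 and 6.21% in knockout (log2 2.16, SE 0.09, edgeR adjusted p = 4.38e-07). Igkv8-30 held 3.02, 2.80 and 2.89% against 6.89, 7.22 and 7.23% (log2 1.29, SE 0.08, edgeR adjusted p = 9.26e-07). The groups were far apart for each of these 3 genes.

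Igkv12-44 held 0.691, 0.548 and 0.524% in wild type against 3.48, 3.28 and 3.63% in knockout (log2 2.56, SE 0.12, edgeR adjusted p = 5.8e-07). Igkv2-137, the member farthest along the locus by its position number among those named here, held 1.23, 0.511 and 1.13% against 3.90, 4.07 and 4.31% (log2 2.10, SE 0.26, edgeR adjusted p = 3.63e-05), with the second wild-type library lower than the other two. Igkv8-27 rose from 0.359 ± 0.0297% to 1.98 ± 0.0399% (log2 2.46), Igkv13-84 from 0.0433 ± 0.00437% to 0.406 ± 0.0398% (log2 3.23) and Igkv4-53 from 0.0467 ± 0.00971% to 0.405 ± 0.0238% (log2 3.11). Their edgeR adjusted p ran from 4.86e-07 to 9.26e-07.

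Of the 10 most used genes, Igkv12-46 and Igkv1-110 did not pass the test. Igkv12-46 held 3.96, 3.78 and 3.94% in wild type against 3.75, 3.80 and 3.71% in knockout (log2 -0.05, SE 0.07, edgeR adjusted p = 0.517), and the groups overlapped. Igkv1-110 held 3.11, 3.03 and 3.34% against 3.16, 3.20 and 2.78% (log2 -0.05, SE 0.09, edgeR adjusted p = 0.601). Both are shares of a total that includes the most used wild-type gene, which fell from a mean of 21.0% to 9.24% of it. The overlap of both genes depends on that gene being in the total, so their levels cannot be read as unchanged. Igkv1-117 held 3.12, 3.09 and 3.33% against 2.83, 2.87 and 2.56%, a log2 change of -0.21 (SE 0.09, edgeR adjusted p = 0.0468). That call was lost without wild-type replicate 2 or 3 (edgeR adjusted p = 0.0799 and 0.145) and without knockout replicate 1, 2 or 3 (edgeR adjusted p = 0.0845, 0.0742 and 0.172).

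**Figure D1:**
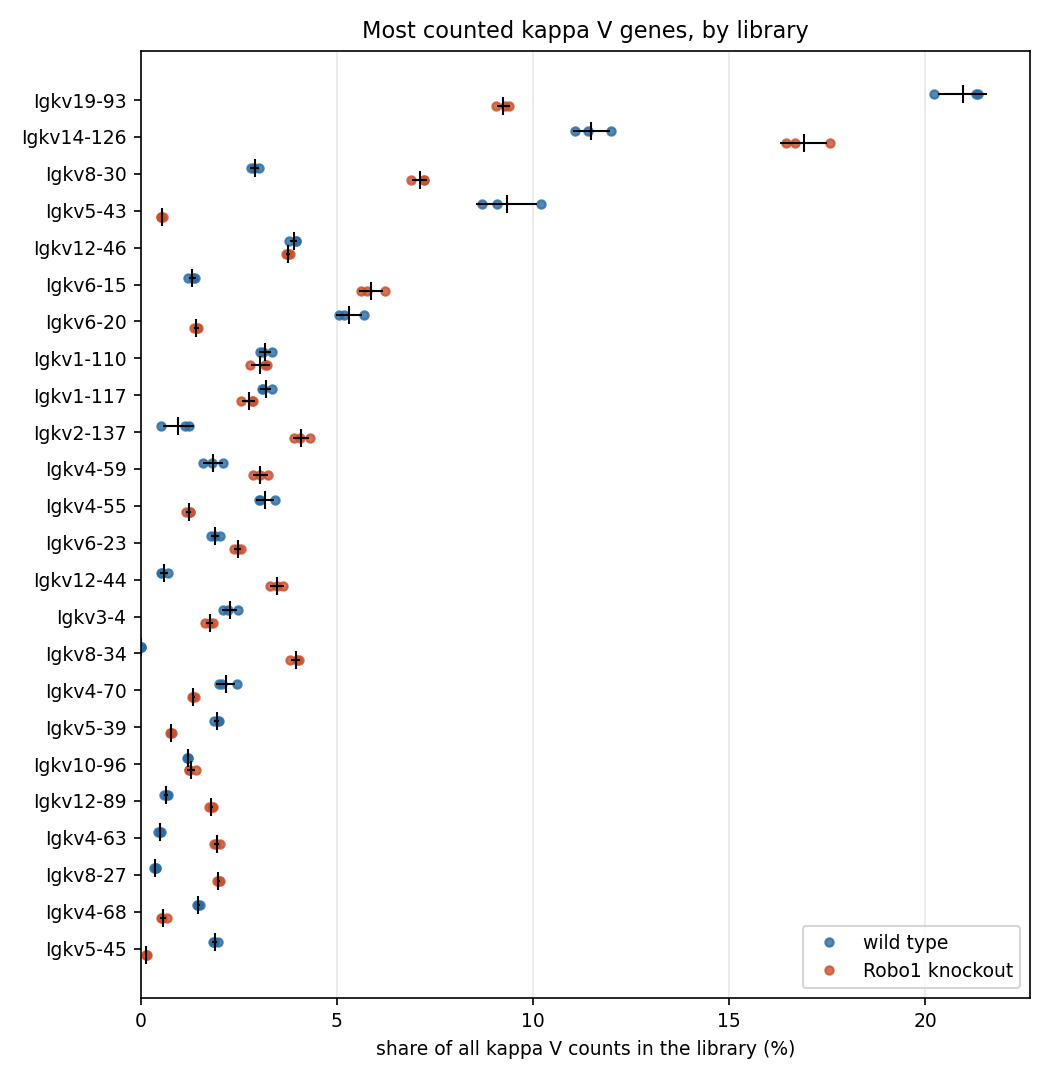
Share of kappa V counts, in percent, for the 24 kappa V genes with a mean share of at least 1%, with 1 point per library, a vertical tick at the group mean and a line of ± 1 SD (n = 3). Igkv19-93 is highest in the 3 wild-type libraries (20.2 to 21.4%) and Igkv14-126 in the 3 knockout libraries (16.4 to 17.6%).

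A small set of members was read in 1 group and listed at 0 in every library of the other. These members met the summed count minimum through 1 group alone. How many of all genes were at 0 throughout 1 group was not counted, so the limits below describe only these 6 members. Igkv8-18 had 0 reads in wild type against 865, 662 and 697 in knockout, a share at least 699-fold higher, taking 3 counts over the wild-type group as the limit that a count of 0 allows. On the same footing Igkv7-33 was at least 192-fold higher, Igkv12-38 at least 137-fold and Igkv14-130 at least 70.7-fold. In the reverse direction Igkv9-123 had 144, 143 and 155 reads in wild type against 0 in knockout, a share at least 156-fold lower, and Igkv4-75 was at least 18.0-fold lower. All 6 are minor genes, with at most 0.336% of kappa V counts in the group that had them.

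Over all 97 members, the share was higher in every knockout library than in every wild-type library for 40, lower for 31 and overlapping for 26. Measured per kappa V count in the same way, 4.06% of all 15474 tested genes were higher and 78.1% lower (82.1% in either direction), since most genes outside the immunoglobulin loci lost counts relative to the kappa V total. In the edgeR test of shares, for which Igkv3-9 had too few counts, 38 of 96 members rose and 30 fell, 31 and 21 of them by at least 2-fold, and 28 did not pass; over all genes tested 3.27% rose and 73.8% fell (77.1% in all). The members' median log2 change was 0.15 and that of all genes -1.36. The members that rose and those that fell were both spread over high and low shares.

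**Figure D2:**
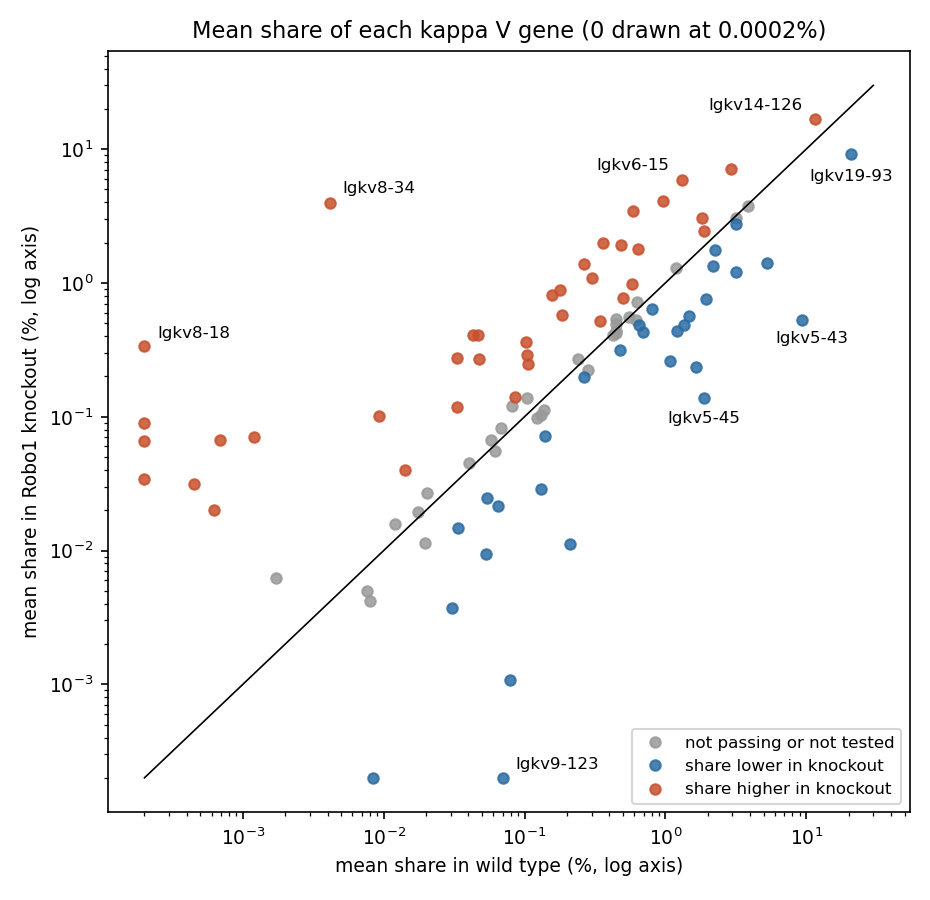
Mean share of kappa V counts of each of the 97 genes in wild type (x axis) and knockout (y axis), in percent on log axes, with means of 0 drawn at 0.0002% and the line of equal shares. Genes whose share rose (38) or fell (30) by the edgeR test are coloured, and Igkv8-34 stands farthest above the line among genes with a read in wild type.

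Against the whole library rather than the kappa V total, the calls depended on the scaling. With TMM scaling 69 of 96 members were called higher in knockout and 10 lower (edgeR, adjusted p under 0.05), where 17.2% of all genes were higher and 14.4% lower (31.7% in all). The 10 lower members were Igkv5-43, Igkv6-20, Igkv5-45, Igkv5-48, Igkv6-29, Igkv4-78, Igkv4-50, Igkv9-123, Igkv4-69 and Igkv4-75. With total counts as library size 42 were higher and 28 lower, where 4.24% of all genes were higher and 70.7% lower (74.9% in all). The median of all genes was -0.09 with TMM and -1.22 with total counts, and that of the members 1.42 and 0.29. There were 42 members higher and 10 lower under both, 6 higher with TMM but lower with total counts, 21 higher only with TMM and 12 lower only with total counts. The authors' deposited table also calls 69 members higher and 10 lower at an adjusted p under 0.05. The change of share uses the kappa V total in place of either scaling.

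By subgroup, 3 shifts carried most of the difference. Subgroup 5 held 14.2, 15.6 and 14.6% of kappa V counts in wild type against 1.71, 1.69 and 1.70% in knockout, with 4 of its 5 members lower and Igkv5-37 higher (3 reads in wild type, 209 in knockout). Igkv5-37 met the count minimum through knockout alone. Subgroup 19, which is Igkv19-93 alone, fell from 21.0 ± 0.629% to 9.24 ± 0.169%. Subgroup 8 held 4.92, 4.88 and 4.94% in wild type against 15.7, 16.3 and 16.5% in knockout, with 7 of its 10 members higher and 1 lower. Subgroups 14, 12 and 2 also stood higher in every knockout library, at 11.8 ± 0.443 against 18.0 ± 0.609%, 5.50 ± 0.190 against 9.72 ± 0.145% and 1.04 ± 0.406 against 4.22 ± 0.186%. All 4 members of subgroup 14 and 5 of 6 in subgroup 12 rose in the share test.

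Subgroup 6 moved little as a whole, from 11.5 ± 0.267% to 12.4 ± 0.366%, while within it 5 members rose and 3 fell, among them Igkv6-15 up and Igkv6-20 and Igkv6-29 down. Subgroup 4, the largest with 28 members, held 13.6 ± 0.716% and 14.1 ± 0.290% with overlapping groups (exact permutation p = 0.4, adjusted 0.48), while 8 of its members rose, 11 fell and 9 did not pass. Subgroup 1 (7.09 ± 0.398 and 6.76 ± 0.441%, exact permutation p = 0.6) and subgroup 9 (1.07 ± 0.0557 and 1.06 ± 0.0820%, exact permutation p = 0.7) overlapped as well. Subgroups 3 (3.67 ± 0.166 to 3.14 ± 0.251%) and 10 (2.46 ± 0.0407 to 1.75 ± 0.143%) stood lower in every knockout library. Of the 12 subgroups with a mean share of at least 1%, 9 did not overlap, each with an exact permutation p of 0.1 and an adjusted value of 0.133 over the 12, and 3 against 3 libraries cannot go lower. With Igkv19-93 left out of the kappa V total, the differences of subgroups 4 and 6 reversed, to -1.69 and -0.85 percentage points, with no overlap. Subgroups 1 and 9 then stood lower in every knockout library, so their overlap depends on that gene being in the total.

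**Figure D3:**
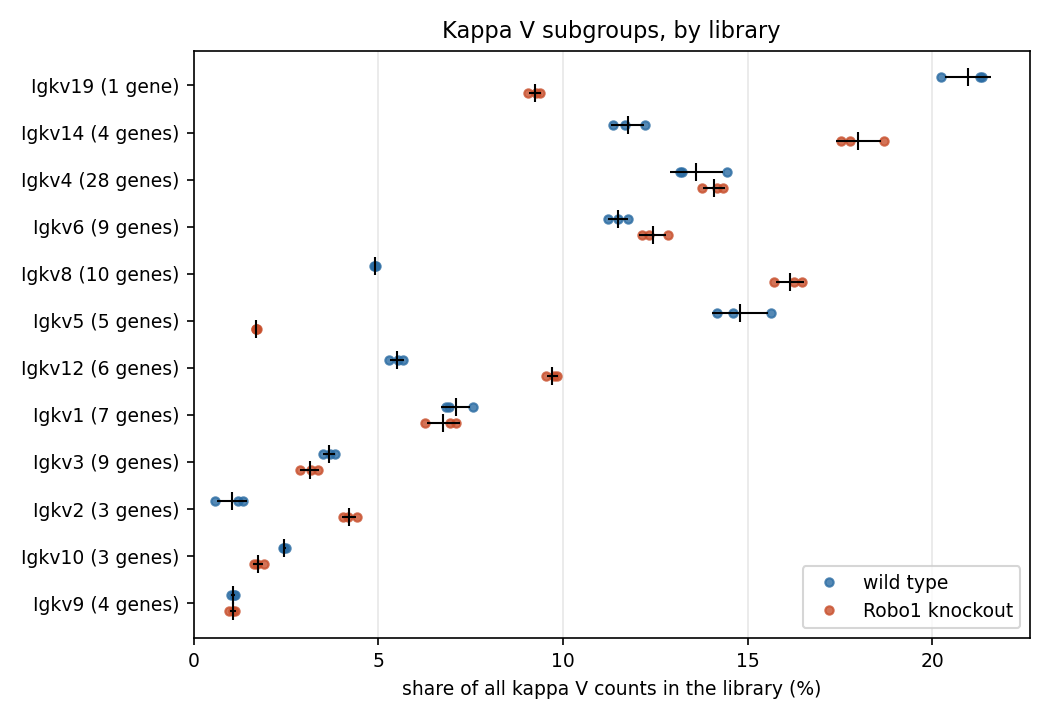
Share of kappa V counts, in percent, by Igkv subgroup in the 6 libraries, with 1 point per library, a tick at the group mean, a line of ± 1 SD (n = 3) and the number of member genes beside each subgroup. Subgroups 5 and 19 are lower and subgroups 8, 14 and 12 higher in all 3 knockout libraries, and subgroups 4, 1 and 9 overlap.

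Members of a subgroup resemble each other, which bears on how far their reads can be told apart. Over the last 250 bases of each transcript, aligned by edit distance, the median identity was 87.6% within subgroups and 64.0% between them. The nearest copy lay in the same subgroup for 92 of 97 members, at a median identity of 93.6%, and 10 members, with 11.6% of kappa V counts between them, had a copy at 98% or more. The sources used here do not say whether reads matching several genes were counted, so values of these 10 are uncertain singly. Just under that limit, Igkv13-84 had 97.6% identity to Igkv13-85, and their 6 differences all fall in the 5′ part of the stretch. Its change of share (log2 3.23, against 0.72 for Igkv13-85) is uncertain in the same way. Compared position by position, Igkv5-43 and Igkv5-45 differ at 3 of 250 bases and Igkv6-20 and Igkv6-29 at 5, and the members of each pair fell together. By contrast Igkv8-34, listed near 0 in wild type, differs at 32 of 250 bases from Igkv8-30, its nearest copy, which had 2.80 to 3.02% of kappa V counts there.

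The Igkv5-43 and Igkv8-34 pairs, the first with few differences and the second with more, are printed below over the last 250 bases. Capitals stand at the positions where the 2 of a pair differ. Whether reads were exchanged within either pair was not tested.
Igkv5-43: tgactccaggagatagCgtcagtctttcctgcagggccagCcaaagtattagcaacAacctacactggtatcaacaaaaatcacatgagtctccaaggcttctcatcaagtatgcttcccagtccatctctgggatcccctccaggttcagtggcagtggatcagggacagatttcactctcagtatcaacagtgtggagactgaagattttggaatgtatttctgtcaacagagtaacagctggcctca
Igkv5-45: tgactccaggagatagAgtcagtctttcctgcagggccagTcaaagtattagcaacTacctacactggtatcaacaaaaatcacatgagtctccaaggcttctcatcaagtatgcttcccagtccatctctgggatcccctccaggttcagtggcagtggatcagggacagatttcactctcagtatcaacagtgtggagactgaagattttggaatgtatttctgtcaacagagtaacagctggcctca
Igkv8-34: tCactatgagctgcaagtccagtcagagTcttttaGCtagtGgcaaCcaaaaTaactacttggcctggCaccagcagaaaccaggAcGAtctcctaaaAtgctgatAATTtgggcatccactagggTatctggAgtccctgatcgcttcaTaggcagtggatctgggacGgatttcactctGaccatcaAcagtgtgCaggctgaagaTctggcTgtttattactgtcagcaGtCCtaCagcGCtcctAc
Igkv8-30: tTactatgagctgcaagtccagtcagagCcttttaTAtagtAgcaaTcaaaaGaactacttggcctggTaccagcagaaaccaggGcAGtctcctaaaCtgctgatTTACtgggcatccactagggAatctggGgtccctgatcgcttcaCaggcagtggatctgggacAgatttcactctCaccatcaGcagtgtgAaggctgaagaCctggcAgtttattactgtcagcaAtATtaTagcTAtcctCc

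On GRCm38 these stretches are chr6:69823355-69823604 (−) for Igkv5-43, chr6:69775750-69775999 (−) for Igkv5-45, chr6:70044112-70044361 (−) for Igkv8-34 and chr6:70117061-70117310 (−) for Igkv8-30. In the first pair the 3 differences fall in the 5′ part of the stretch, and the bases from the cysteine codon on are the same. In the second pair differences run along the whole stretch and include the bases after the cysteine codon.

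Along the locus, the shift was not a uniform move toward or away from Igkc. Summed in steps of 0.5 Mb of distance from Igkc, members within 0.5 Mb held 14.6 ± 0.356% in wild type against 16.3 ± 0.299% in knockout. Members from 1.5 to 2.0 Mb, where Igkv19-93 lies, held 23.7 ± 0.682% and 14.1 ± 0.0737%. Those from 2.5 to 3.0 Mb, where Igkv14-126 lies, held 16.3 ± 0.359% and 21.3 ± 0.734%, and those from 3.0 to 3.5 Mb, with Igkv2-137, held 1.61 ± 0.384% and 4.64 ± 0.204%. The other 3 steps overlapped between the groups. Of the 70 neighbouring pairs among the 71 members whose groups did not overlap, 37 moved in the same direction and 33 in opposite directions.

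Members in the orientation of Igkc, which join by deletion, held 25.9 ± 0.647% of kappa V counts in wild type against 35.3 ± 0.881% in knockout, with no overlap (exact permutation p = 0.1). Gene by gene, 13 of the 34 tested members of this orientation rose in share and 8 fell, against 25 and 22 of 62 in the opposite orientation. Igkv14-126 has the orientation of Igkc and Igkv19-93 the opposite one. The 5 pseudogenes together held 0.0296 ± 0.00403% and 0.107 ± 0.00670%, with 2 members higher and 1 lower.

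**Figure D4:**
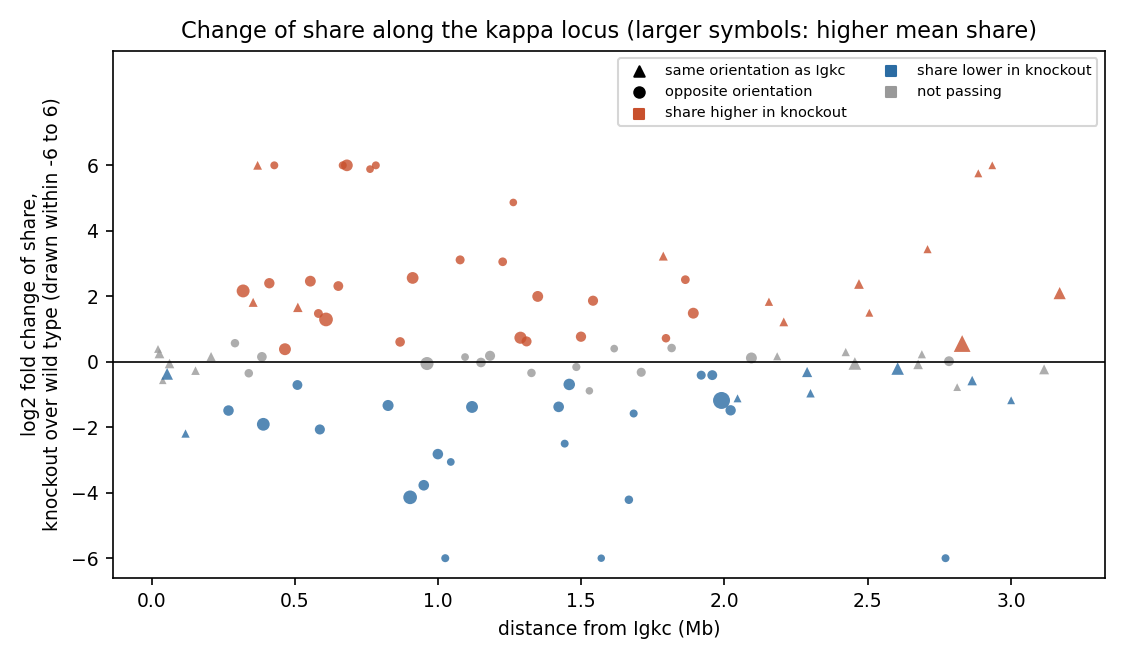
Log2 change of share (knockout over wild type) of each kappa V gene against its distance from Igkc, in Mb, with the orientation of the gene shown by the symbol, larger symbols for higher mean share and values beyond 6 drawn at 6. Genes that rose and genes that fell lie side by side along the locus, with 33 of 70 neighbouring pairs moving in opposite directions.

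Kappa V usage was spread over more genes in the knockout libraries. The effective number of genes (the exponential of the Shannon entropy of the shares, which equals the number of genes if all were used alike) was 25.9, 24.7 and 25.4 in wild type against 31.6, 31.9 and 31.4 in knockout, a difference of 6.27 (exact permutation p = 0.1). It took 6, 5 and 5 genes to reach 50% of kappa V counts in the wild-type libraries and 7 in each knockout library, and 30 against 36 genes to reach 90%. The 10 most used genes of each library held 65.8 ± 0.754% in wild type against 60.5 ± 0.414% in knockout (exact permutation p = 0.1). Igkv19-93 set most of this: without it the effective numbers differed by 0.817, and the top-10 share was 0.206 percentage points higher in knockout with overlapping groups. Over the whole range, 24 members had a mean share of at least 1%, and the 30 with a mean share under 0.1% together held 0.991%.

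The other segments of the kappa locus shifted too. Of reads on the J segments, to which V genes are joined, Igkj1 took 34.9 ± 1.38% in wild type against 47.2 ± 1.38% in knockout, and Igkj2 took 43.2 ± 0.539% and 23.8 ± 0.805% (exact permutation p = 0.1 for each). Igkj4 stood at 6.33 ± 1.01 and 7.68 ± 0.311% and Igkj5 at 15.6 ± 1.92 and 21.3 ± 1.14%. With TMM scaling Igkc and all 4 tested J segments rose, Igkc by 1.70 on the log2 scale (SE 0.05, edgeR adjusted p = 5.79e-08). With total counts Igkc was up by 0.57 and Igkj2 was down by 0.23 (log2 -0.23).

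The lambda light chain, the alternative to kappa, went the other way. The ratio of kappa V to lambda V counts was 9.62 ± 0.775 in wild type against 56.1 ± 5.56 in knockout, and that of kappa to lambda constant counts 25.6 ± 2.93 and 202 ± 13.6 (exact permutation p = 0.1 for each). With TMM scaling 6 of 8 tested lambda genes fell, where 14.4% of all genes did, among them Iglc1 (log2 -1.64, SE 0.10, edgeR adjusted p = 1.81e-06) and Iglc2 (log2 -0.87, SE 0.09, edgeR adjusted p = 8.58e-05). Iglc3 rose with TMM scaling (log2 0.80) and fell with total counts (log2 -0.33). With total counts all 8 tested lambda genes fell, where 70.7% of all genes did.

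Lists of B lineage genes were read against all genes tested, of which 17.2% rose and 14.4% fell with TMM scaling (median log2 -0.09) and 70.7% fell with total counts. Of 23 tested genes of the recombinase, its repair partners and regulators, 5 fell and 18 did not pass with TMM scaling (median log2 -0.26), and 18 fell with total counts, a share near that of all genes. Among 14 pre-B cell genes 1 rose, 5 fell and 8 did not pass (median log2 -0.50). Igll1, part of the surrogate light chain, fell by 0.62 on the log2 scale (edgeR adjusted p = 0.0152), and Ebf1, a B lineage transcription factor, fell by 1.80 (edgeR adjusted p = 0.0255) on the same scale. The call of Igll1 was lost without wild-type replicate 1 or 3 or knockout replicate 2 (edgeR adjusted p = 0.0590, 0.0514 and 0.0581), and that of Ebf1 without wild-type replicate 2 or 3 or knockout replicate 1 or 2 (edgeR adjusted p = 0.120, 0.0938, 0.0631 and 0.0659). Cd24a, which red cell and myeloid precursors also express, rose (log2 1.41).

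Among 12 mature B cell genes 1 rose and 4 fell with TMM scaling, where 17.2% and 14.4% of all genes did, and 9 fell with total counts, near the 70.7% of all genes. Those that fell with TMM scaling included H2-Ab1, an MHC class II chain (log2 -0.41), and Ly6d (log2 -0.70). Cd79a, the signalling chain of the B cell receptor, fell by 0.48 (edgeR adjusted p = 0.0183), a call lost without wild-type replicate 1 or 3 or knockout replicate 1 (edgeR adjusted p = 0.0647, 0.0544 and 0.0611). Cd37 rose with TMM scaling (log2 0.40) and fell with total counts (log2 -0.73). Among 18 plasma cell genes 4 rose, 5 fell and 9 did not pass with TMM scaling, and 13 fell with total counts, again near the share of all genes. Jchain (log2 0.63), Sec11c (0.48) and Herpud1 (0.31) rose with TMM scaling and fell with total counts (-0.50, -0.65 and -0.82), while Xbp1, a transcription factor that plasma cells need, fell under both (-1.29 and -2.43). In TMM-scaled CPM the summed plasma cell list was 2458 to 2669 in wild type against 3116 to 3477 in knockout. The summed mature B cell list was 579 to 603 and 501 to 524 CPM. Sums were not taken with total counts, where none of the 18 plasma cell genes was called higher. The higher plasma cell sum in knockout thus holds for TMM scaling only.

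Lists of other marrow cells were summed in the same TMM-scaled CPM, and 1 or 2 genes made up most of each sum. Stem and progenitor genes summed to 47576 to 51222 CPM in wild type against 144934 to 152961 CPM in knockout, almost all of it Mpo, with 3 of 14 higher and 3 lower. T and NK cell genes summed to 3371 to 3435 against 6325 to 6740 CPM, almost all of it Nkg7, a cytotoxic granule gene that rose (log2 0.94), while the T cell kinase gene Lck fell (7.66 ± 0.855 to 3.83 ± 0.782 CPM) and the other 5 tested did not pass. Of the monocyte and macrophage genes, 800 to 894 against 2981 to 3373 CPM in sum, Ly6c2 (log2 2.12) and Vcam1 (0.64) rose and Cd68 (-0.76) fell, as did Fcgr1, which had 10, 33 and 23 reads in wild type and 0 in knockout. Of the erythroid genes, 907 to 1194 against 2926 to 3521 CPM in sum, the globin genes Hba-a1 (log2 1.65) and Hbb-bs (1.94) rose and the transcription factor gene Klf1 (-0.47) fell. With total counts Nkg7 (log2 -0.19) and Vcam1 (log2 -0.50) fell instead. Over all genes 17.2% rose and 14.4% fell with TMM scaling. The part of these differences in the kappa V result was not tested.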

How the data were processed

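RNA-seq libraries of 3 wild-type and 3 Robo1 knockout samples were compared. Per the submitters' processing notes, fastp 0.22.0, HISAT2 2.2.1, featureCounts 2.0.1 and DESeq2 1.32.0 were used with mm10; strand and multi-mapping settings are not given in the sources used here. The table deposited by the authors holds raw counts per gene, FPKM, and the authors' log2 fold changes with their p-values and adjusted p-values.

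From the counts, shares of the kappa V total and edgeR 4.0.16 quasi-likelihood fits (R 4.3.3) were computed over all 15474 genes passing filterByExpr, with TMM scaling, with total counts and with the kappa V total as library size; Benjamini-Hochberg adjusted p under 0.05 was a call. The steps were tested on simulated data. Per-library values were compared by exact two-sided permutation tests. DESeq2 1.42.0, no filter, a replicate block, a summed count minimum of 300 and leaving out each library were alternatives. Sequences and positions are GENCODE's for GRCm38.

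Members and gene lists were chosen with earlier results of these data known. The genes named are the 10 most used members, the 5 largest rises and the 5 largest falls in share among members with a mean share of at least 0.2% and groups that do not overlap, plus Igkc, lambda constant genes and up to 4 members of each B lineage list with the lowest p; members named beside a subgroup or at 0, the lower members under TMM, and cell markers were chosen after their values were seen. For the fold limits, a group at 0 was read as at most 3 counts over the summed kappa V counts of that group. In 1 library, 3 counts are 0.00119 to 0.00161% of kappa V counts. The 95% Wilson intervals of a share reached at most 0.179 percentage points to either side, for counting error only.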

Additional observations from a re-analysis of the deposited data

How the results depend on the processing

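Of 96 alternative values of the main results, 93 were scored as unchanged. For counts of members or of subgroups this meant a count within a set fold of the main one. For values compared by permutation it meant only the same direction, since so few libraries cannot give a p under 0.05. With total counts in place of TMM, members called higher numbered 42 and lower 28, against 69 and 10; in the same setting Iglc3 (log2 -0.33), Cd37 (-0.73), Jchain (-0.50), Sec11c (-0.65) and Herpud1 (-0.82) reversed. Without Igkv19-93 in the kappa V total, the difference in top-10 share reversed to 0.206 percentage points, and those of subgroups 4 and 6 to -1.69 and -0.85. Leaving out each library in turn gave 68 to 70 members higher and 8 to 11 lower (TMM), 38 to 39 and 26 to 31 by share, an effective number difference of 5.96 to 6.55, a top-10 share difference of -5.65 to -4.90, an orientation difference of 8.93 to 9.80 percentage points, 9 to 10 subgroups apart, a kappa V percent of counts difference of 0.0266 to 0.0534 and a difference per Igkc count of -0.0763 to -0.0552. The difference of subgroup 9 ranged from -0.0528 to 0.0270 percentage points, reversing without knockout replicate 2, and the log2 change of Igkv1-110 from -0.0895 to 0.00935, reversing without knockout replicate 3. The cause of these changes was not tested. Without the 100 most abundant genes other than immunoglobulin genes the kappa V percent, then of a smaller total, differed by 0.353 percentage points. With alternatives chosen after seeing the data, the effective number differed by 6.33 from FPKM and by 7.76 with copies within 2% joined. With the replicate number as a block, 68 members were higher and 10 lower by TMM, and 38 and 28 by share, and the calls of Igkv1-117 and Ebf1 were lost (adjusted p 0.0639 and 0.0510, edgeR). Same-numbered libraries showed little shared deviation from their group means (correlations 0.047, -0.023 and 0.047), and 3 of 6 libraries correlated best with their own number. With 3 libraries per group this cannot exclude that the numbers pair the samples. Depth limits the 30 members with a mean share under 0.1%.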
